A study of Drosophila melanogaster with 33 samples.

Results

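The 8 genes described here encode small secreted peptides of fly immunity: Drosomycin (Drs), Metchnikowin (Mtk), Defensin (Def) and the bomanins BomS1, BomS2, BomS3, BomBc1 and BomBc3. They are given by a list of names, which was drawn up with earlier results of these data known, and each symbol was matched to its FlyBase gene in the table of linear RNA. All 8 were found among the 16240 genes of that table, and all 8 passed the filter of a mean of at least 10 normalized reads that 12685 genes passed. In heads, 7 of the 8 were higher at day 50 than at day 0 in each sex, beside 19.9% of all genes tested in males and 21.0% in females. From day 0 to day 50, Drs, Mtk and Def had larger increases in males than in females. The result for Drs depended on 1 of the 2 male libraries of day 50. Over days 10 to 50 Def did not rise more in males, with a log2 change of 0.90 in males and 1.43 in females. BomS3, the bomanin with the highest read number at day 0, went down by day 10 and then came back.

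The study followed wild-type CantonS flies (strain label CS, genotype label WT) kept at 25 °C in 12 hours of light and 12 hours of dark. Total RNA of heads was depleted of ribosomal RNA and sequenced for 12 groups: males and females of days 0, 10, 20, 30, 40 and 50, where day 0 is the label-given stage of flies mated for 3 days. Each female group held 3 libraries, and male groups held 3 libraries at days 0, 30 and 40 and 2 libraries at days 10, 20 and 50, which makes 33 libraries. No group carried a mutation, a transgene or an infection by its labels, each library is a pool of many heads, and the microbes the flies carried were not measured.

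In insects, microbial cell wall fragments or microbial proteases start a cascade of serine proteases in the blood that cuts Spätzle, the ligand of the Toll receptor. Toll then acts through Myd88, tube and pelle to release the NF-kappaB factors Dif and dorsal from the inhibitor cactus, and these switch on peptide genes, mainly in the fat body, which also lines the fly head. Drosomycin is the classic read-out of Toll and acts on fungi, while metchnikowin and defensin answer to both Toll and the related Imd pathway. The bomanins are short peptides that depend on Toll and are needed for defence against fungi and some Gram-positive bacteria. Short bomanins (BomS) consist of little more than the bomanin motif, tailed ones (BomT) carry an extension, and bicipital ones (BomBc) join bomanin motifs by a linker.

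The coding sequence of Drs is printed because its cysteine codons, in capitals, show the make-up of the mature peptide, which is held together by disulfide bridges. It spans chr3L:3369619-3369828 on the + strand and was read from the genome of dm6. It holds 210 bases, 70 codons and 8 cysteine codons.
Drs coding: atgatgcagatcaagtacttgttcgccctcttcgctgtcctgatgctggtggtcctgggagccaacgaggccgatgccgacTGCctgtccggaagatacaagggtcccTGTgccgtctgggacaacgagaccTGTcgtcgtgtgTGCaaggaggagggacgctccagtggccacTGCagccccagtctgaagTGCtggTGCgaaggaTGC

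The 250 bases before the annotated start of each gene were searched on both strands for the letters GGG and CC with any 5 bases between them, a short form of the site that NF-kappaB factors bind, and for GATAA, the core of sites for GATA factors, which are active in the fat body. The NF-kappaB letters were found in 5 of the 8 windows (Mtk, Def, BomS3, BomBc1 and BomBc3), against 11.03% of 13945 windows of protein-coding genes. Mtk and BomBc1 held 2 or more matches, as did 2.34% of the windows, with overlapping matches counted apart. GATAA was found in 7 of the 8 windows, against 50.3% of all, and no match of one motif overlapped a match of the other. A match is a description of letters and not a bound site, and a window without one can have sites farther away. The windows of BomBc3 and Drs are printed to show a window with and a window without the NF-kappaB letters. The window of BomBc3 (chr3R:22086825-22087074, + strand) has 1 match, in capitals, at 22087013 to 22087022, which reads as the motif on the opposite strand, and the window of Drs (chr3L:3369306-3369555, + strand) has none.
BomBc3 upstream: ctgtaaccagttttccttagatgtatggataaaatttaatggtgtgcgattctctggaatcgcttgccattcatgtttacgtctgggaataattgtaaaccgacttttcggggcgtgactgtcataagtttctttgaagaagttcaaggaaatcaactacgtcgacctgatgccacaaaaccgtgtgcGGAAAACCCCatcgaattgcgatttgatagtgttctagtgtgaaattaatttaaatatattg
Drs upstream: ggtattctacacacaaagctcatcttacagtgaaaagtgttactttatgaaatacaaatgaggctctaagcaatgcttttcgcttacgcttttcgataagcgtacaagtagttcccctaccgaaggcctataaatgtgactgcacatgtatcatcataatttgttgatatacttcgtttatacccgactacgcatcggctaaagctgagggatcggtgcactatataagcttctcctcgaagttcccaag

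Gene positions are likewise those of dm6, with gene models of the BDGP6.54 annotation. Drs (FBgn0283461) is a gene of 1 exon on the + strand of chromosome arm 3L, from 3369556 to 3369942. Mtk (FBgn0014865) has 1 exon at 2R from 15408846 to 15409113 and lies inside an intron of Stacl on the same strand. Def (FBgn0010385), also of 1 exon, sits at 2R from 10054178 to 10054576 on the − strand within magu, which runs on the other strand, and shares no exon base with it. BomBc1 (FBgn0034328, 18382704 to 18383235, − strand), BomS1 (FBgn0034329, 18383949 to 18384378, + strand), BomS2 (FBgn0025583, 18386602 to 18387030, + strand) and BomS3 (FBgn0040736, 18387895 to 18388734, + strand) are genes of 2 exons each in the bomanin cluster of 2R. In this cluster BomS4 and BomBc2 lie between BomS1 and BomS2. BomBc3 (FBgn0040582) is apart from them, at 3R from 22087075 to 22088501 on the + strand, with 3 exons, next to BomT3. The longest identical stretch of exon sequence was 24 bases between BomS1 and BomS2, 23 bases between BomS2 and BomS3 and 29 bases between Drs and its relatives Drsl5 and Drsl6. Reads from longer fragments can therefore be assigned to one of these copies, but how the counting treated ambiguous reads and strand is not given in the sources used here.

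Values are normalized reads, that is, read counts per gene divided by a size factor per library. Whole reads were recovered for 32 of the 33 libraries, with male day 20 replicate 1 set aside by name. These 32 libraries held 28848182 to 94953552 linear reads (median 56701537.5), so counting error is small for these genes. The sex labels matched the markers, with 50.5 to 6054 normalized reads of the yolk protein gene Yp1 in male libraries and 113110 to 1649100 in female ones. The neuronal gene elav, the photoreceptor gene ninaE and the glial gene repo were present in every library. The libraries of male day 20 stood apart in base composition: relative to their group mean, the 25% of genes richest in G and C stood above the 25% poorest in them by 0.46 on the log2 scale in replicate 1 and at −0.46 in replicate 2, and male day 40 replicate 1 followed with 0.23. Female replicates 1 and 2 of day 50 carried equal numbers of back-splice reads for each of the 4330 circRNAs found in them, whereas their linear reads were equal in 485 of 15642 genes, so both were kept for the linear genes described here, and averaging them changed no call of a member. The short bomanins are poor in G and C, at 40.7% for BomS1, 41.1% for BomS2 and 41.4% for BomS3. BomBc3 is at 43.3%, Mtk at 46.3%, Drs at 48.8%, Def at 48.9% and BomBc1 at 51.5%. Replicate 1 of male day 20 was below replicate 2 by 1.12 to 1.67 on the log2 scale for BomS1, BomS2 and BomS3 and by 1.23 for Drs, and above it by 0.31 for Def. For the other members, replicate 1 minus replicate 2 was −1.14 for Mtk, −0.68 for BomBc1 and −0.07 for BomBc3. The part of base composition in these gaps was not tested, and results for male day 20 are therefore given with and without replicate 1.

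**Figure D1:**
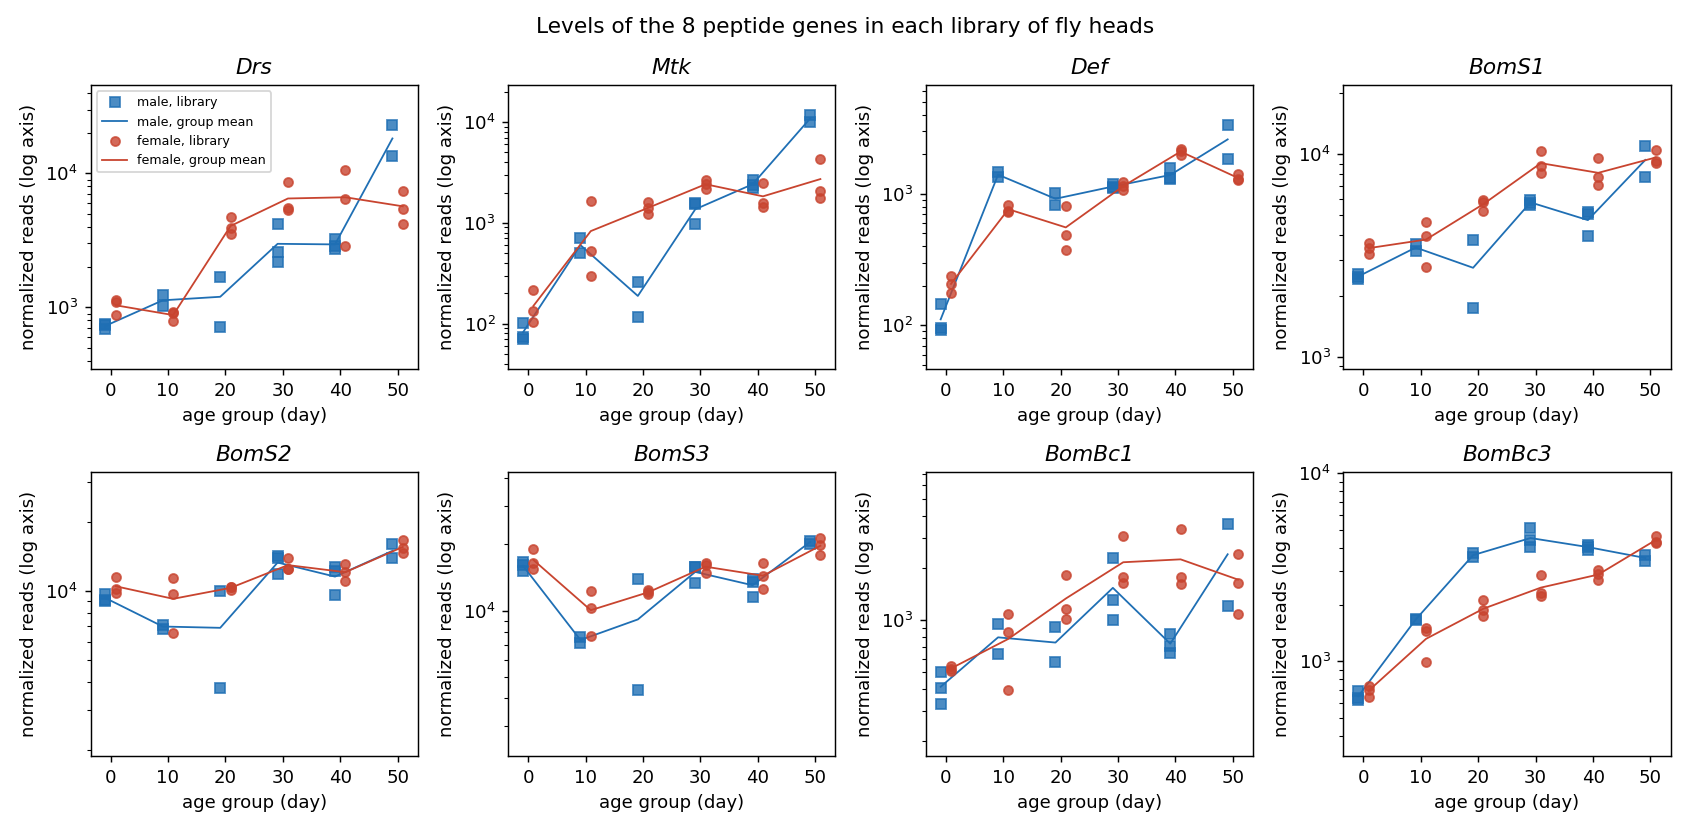
Normalized reads (log axis) of each of the 8 peptide genes against age group in days, with 1 point per library and lines through the group means, males and females in separate colours. Drs and Mtk reach their highest points in the 2 male libraries of day 50, at 13601 and 22898 for Drs and 9993 and 11693 for Mtk, whereas BomS3 dips at day 10 in both sexes.

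Drosomycin had its largest step between neighbouring ages late in males and earlier in females. In males, Drs had 752, 744 and 688 normalized reads (day 0), 1025 and 1234 (day 10), 716 and 1685 (day 20), 4206, 2164 and 2578 (day 30), 3246, 2896 and 2717 (day 40), and 22898 and 13601 (day 50). In females it had 1129.6, 1101 and 879.8 (day 0), 925, 914 and 790.0 (day 10), 3904, 3561 and 4695 (day 20), 5476, 8672 and 5360.2 (day 30), 2859.9, 6423 and 10640.5 (day 40), and 5454, 4179 and 7421 (day 50). The male libraries of day 50 were above all other libraries of either sex, while in females every library of days 20 to 50 lay above every library of days 0 and 10, which overlapped each other. Day 50 was 24.2-fold over day 0 in males (log2 change 4.60 ± 0.40, limma adjusted p = 6.3e-10; ± is the standard error in all such values) and 5.36-fold in females (log2 change 2.42 ± 0.36, limma adjusted p = 2.6e-06). A gene was called when the adjusted p was under 0.05 and the log2 change beyond 0.5, and for day 50 against day 0 19.9% of all genes tested were called higher in males and 21.0% in females.

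Metchnikowin, a proline-rich peptide, had the largest change of the 8 genes in both sexes at day 50. In males, Mtk had 74.2, 102 and 70.1 normalized reads (day 0), 497 and 707 (day 10), 117 and 259.7 (day 20), 985, 1579 and 1527 (day 30), 2686, 2213 and 2355 (day 40), and 11693 and 9993 (day 50). Female libraries had 214, 132 and 104 (day 0), 297, 1660.3 and 529 (day 10), 1596, 1396 and 1238 (day 20), 2433, 2638 and 2182 (day 30), 1569, 1434 and 2498 (day 40), and 2093, 1768 and 4301 (day 50). Each library of days 10 to 50 was above each library of day 0 of the same sex, and the male libraries of day 50 were again above all others. The log2 change at day 50 was 7.04 ± 0.49, limma adjusted p = 1.1e-11 in males and 4.13 ± 0.44, limma adjusted p = 1.5e-08 in females. The increase was there by day 10, at 2.86 ± 0.49, limma adjusted p = 2.9e-05 in males and 2.15 ± 0.44, limma adjusted p = 1.9e-04 in females, although the female libraries of that age differed by 5.59 times between the highest and the lowest, the widest spread of any member in any group. Both male libraries of day 20 were below both of day 10, and replicate 1 was the lower one. Mtk at day 20 against day 0 in males missed the threshold with both libraries (1.10 ± 0.49, limma adjusted p = 0.054) and was called without replicate 1 (1.67 with an adjusted p of 0.025) and by DESeq2 without that library (1.69 with an adjusted p of 0.015). It was also called with males fitted alone, with total scaling, with a filter of 50 normalized reads and without replicate 2 of day 0. By edgeR, run without replicate 1 of day 20, it was not called. Without replicate 2 of day 20 the log2 change was 0.53, so its size depends on which day 20 library is kept.

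Defensin, which acts mainly on Gram-positive bacteria, was called higher from day 10 on in both sexes, an age at which Drs was not called (0.63 ± 0.40, limma adjusted p = 0.20 in males and −0.24 ± 0.36, limma adjusted p = 0.59 in females). In males, Def had 146, 92.5 and 95.1 normalized reads (day 0), 1457 and 1338 (day 10), 1015 and 819 (day 20), 1178, 1107 and 1124 (day 30), 1558, 1286 and 1328 (day 40), and 1824 and 3362 (day 50). In females the values were 207, 236 and 177 (day 0), 734, 738 and 819 (day 10), 805, 487 and 375 (day 20), 1061, 1146 and 1223 (day 30), 2176, 1977 and 2132 (day 40), and 1409, 1266 and 1286 (day 50). By day 10 males were 12.7-fold over day 0 (log2 change 3.67 ± 0.23, limma adjusted p = 3.1e-13) and females 3.7-fold (log2 change 1.89 ± 0.21, limma adjusted p = 1.2e-08). The 3 female libraries of day 40 were above every other female library, and the male libraries of day 50 were far from each other. At day 50 the log2 change against day 0 was 4.50 ± 0.23, limma adjusted p = 3.2e-15 in males and 2.68 ± 0.21, limma adjusted p = 1.1e-11 in females.

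The short bomanins began at high levels and changed less. BomS1 had 2435, 2488 and 2578 normalized reads (day 0), 3330.1 and 3614 (day 10), 1738 and 3779 (day 20), 5777, 5656 and 5964 (day 30), 3953, 5180.2 and 5090.4 (day 40), and 11006 and 7771 (day 50) in males. Females had 3473, 3656 and 3214 (day 0), 3961, 4649 and 2796 (day 10), 5853, 5280.1 and 5932 (day 20), 8735, 10374 and 8053 (day 30), 7031, 7746 and 9557 (day 40), and 9318, 9089.6 and 10555 (day 50). All libraries of days 30, 40 and 50 were above all of day 0 in both sexes, whereas the male libraries of day 20 lay on either side of day 0. BomS1 was higher at day 50 by 1.89 ± 0.22, limma adjusted p = 5.9e-08 in males and 1.48 ± 0.20, limma adjusted p = 4.1e-07 in females.

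BomS2 had small changes against day 0. In males it had 9742, 9031 and 9155 normalized reads (day 0), 6840.3 and 7121 (day 10), 3771 and 10009.5 (day 20), 11863, 13902 and 14183 (day 30), 9622, 12256 and 12779 (day 40), and 16092 and 13870.4 (day 50). Female values were 10245, 11451 and 9748 (day 0), 9712, 11427 and 6561 (day 10), 10412, 10133 and 10396 (day 20), 12424, 13995 and 12511 (day 30), 11033, 12062 and 13139 (day 40), and 16656, 14706 and 15393 (day 50). The male libraries of day 10 were below all of day 0, although the change was not called (−0.41 ± 0.24, limma adjusted p = 0.15). At day 50 the libraries of each sex were above all of its day 0, and the log2 change was 0.68 ± 0.24, limma adjusted p = 0.016 in males and 0.57 ± 0.22, limma adjusted p = 0.021 in females. Both calls are near the threshold: in males the value was 0.58 with an adjusted p of 0.12 without replicate 1 of day 50 and 0.68 with an adjusted p of 0.051 with males fitted alone. In females it was 0.52 with an adjusted p of 0.063 without replicate 3 of day 0 and 0.52 with an adjusted p of 0.062 without replicate 1 of day 50.

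BomS3 was the member that fell first. It had 16571, 15203 and 16172 normalized reads (day 0), 7136 and 7592 (day 10), 4374 and 13883 (day 20), 13378, 15805 and 15794 (day 30), 11583, 13556 and 13994 (day 40), and 20799.7 and 20171 (day 50) in males. In female heads it had 16436, 19122 and 15418 (day 0), 10233, 12242 and 7682 (day 10), 12117, 11881 and 12357 (day 20), 16520.5, 16093 and 14891 (day 30), 12482, 14316 and 16435 (day 40), and 19841, 17923 and 21355 (day 50). All libraries of day 10 were below all of day 0, with a log2 change of −1.12 ± 0.26, limma adjusted p = 8.8e-04 in males and −0.78 ± 0.24, limma adjusted p = 0.0064 in females. At day 50 against day 0 BomS3 was not called in either sex: the 95% interval of the log2 change was −0.19 to 0.91 in males and −0.27 to 0.71 in females. The male libraries of day 50 did not overlap those of day 0, so a modest increase is within that interval.

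The bicipital genes differed in how tightly their libraries agreed. BomBc1 had 328, 407 and 502 normalized reads (day 0), 638 and 955 (day 10), 571 and 915 (day 20), 2299.8, 1303 and 1009 (day 30), 648, 835 and 713 (day 40), and 3602 and 1203 (day 50) in males. Female libraries held 526, 507 and 546 (day 0), 852, 1092 and 396 (day 10), 1017, 1167 and 1817 (day 20), 1629.8, 3072 and 1780.2 (day 30), 1618, 1780.0 and 3339.7 (day 40), and 1090.4, 1637 and 2418 (day 50). The libraries of one group were far apart, with a median ratio of 1.84 between the highest and the lowest, and in females each age overlapped the next. BomBc1 was higher at day 50 than at day 0 by 2.35 ± 0.48, limma adjusted p = 1.4e-04 in males and 1.63 ± 0.43, limma adjusted p = 0.0017 in females.

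BomBc3 was the most even gene, with a median ratio of 1.12 between the highest and the lowest library of a group and at most 1.51. It had 637, 691 and 625 normalized reads (day 0), 1683 and 1648 (day 10), 3573 and 3754 (day 20), 4043, 4419 and 5086 (day 30), 4163, 3901 and 4065 (day 40), and 3674 and 3401 (day 50) in males. In females it had 737, 706 and 649 (day 0), 1500.3, 1451 and 995 (day 10), 1873, 1729.8 and 2104 (day 20), 2297, 2867 and 2222 (day 30), 2703, 2919 and 3043 (day 40), and 4657, 4327 and 4228 (day 50). In females the group mean was higher at each age than at the age before, and days 30 and 40 were the only neighbouring ages that overlapped. Males were within the range of their later libraries by day 20, with the highest library at day 30. At day 50 the log2 change against day 0 was 2.44 ± 0.13, limma adjusted p = 1.9e-15 in males and 2.66 ± 0.11, limma adjusted p = 1.9e-17 in females.

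Set side by side over all ages, each against day 0 of the same sex, the members called higher in males numbered 3 (day 10), 2 (day 20), 7 (day 30), 5 (day 40) and 7 (day 50). The share of all genes called higher was 15.8%, 18.3%, 18.5%, 19.7% and 19.9% at these ages. In females they numbered 3 (day 10), 6 (days 20, 30 and 40) and 7 (day 50), beside 15.5%, 20.1%, 20.8%, 21.0% and 21.0% of all genes. These comparisons share the day 0 libraries. Members called lower were BomS3 at day 10 in both sexes, when 16.5% of all genes were called lower in males and 18.3% in females, and BomS2 and BomS3 at day 20 in males, when 23.8% were. The last pair rests on replicate 1 of male day 20: without it BomS2 was 0.11 with an adjusted p of 0.67 and BomS3 −0.20 with an adjusted p of 0.36, and 5 members were called higher and 0 lower. The median log2 change of the 8 members at day 50 was 2.40 in males and 2.03 in females, beside −0.03 and −0.04 over all genes tested.

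**Figure D2:**
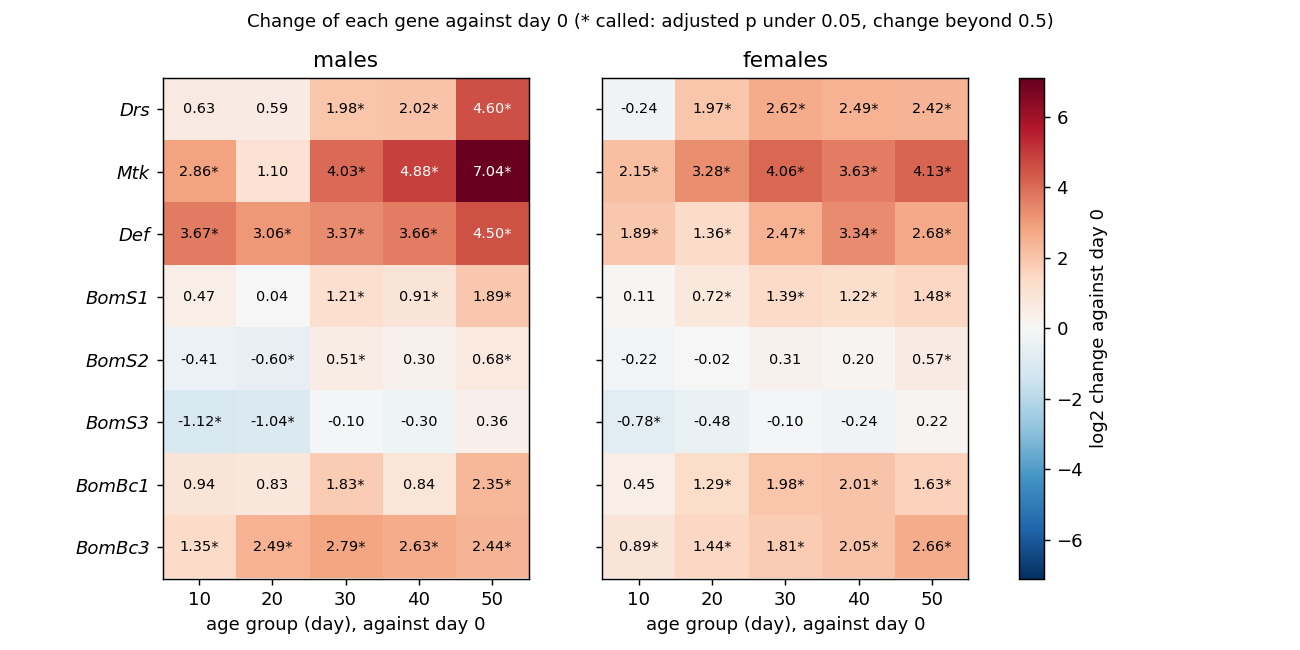
Log2 change of each of the 8 genes (rows) at days 10 to 50 against day 0 (columns), males on the left and females on the right, with colour for the size and an asterisk where the change was called. Mtk at day 50 in males has the darkest cell, with 7.04, and BomS3 at day 10 is the lowest called cell in each sex, with −1.12 in males and −0.78 in females.

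Since many genes differ between day 0 and all later ages, the change was also fitted as a straight line over days 10 to 50 and given as the log2 change over these 40 days. By this measure all 8 members were called higher in both sexes, beside 10.2% of all genes in males and 11.4% in females. In males the values were 4.86 for Mtk, 3.75 for Drs, 1.48 for BomS1, 1.48 for BomS3, 1.24 for BomS2, 1.14 for BomBc1, 0.93 for BomBc3 and 0.90 for Def. In females they were 2.34 for Drs, 1.72 for Mtk, 1.65 for BomBc3, 1.43 for Def, 1.30 for BomS1, 1.23 for BomBc1, 0.89 for BomS3 and 0.72 for BomS2. BomS3, not called at day 50 against day 0, thus rose over days 10 to 50. The line of BomBc1 in males was the weakest (limma adjusted p = 0.047) and lost its call without any one of 8 of the 12 libraries in it, among them replicate 1 of day 50, without which it was 0.50 with an adjusted p of 0.46. Def in males was 0.55 with an adjusted p of 0.066 without replicate 2 of day 50, and BomBc1 in females was 0.89 with an adjusted p of 0.062 without replicate 3 of day 10.

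Steps between neighbouring ages placed the changes in time. In males the step of day 50 against day 40 was 2.58 ± 0.40, limma adjusted p = 1.1e-04 for Drs and 2.16 ± 0.49, limma adjusted p = 0.0048 for Mtk, and 5 members were called higher in it (Drs, Mtk, Def, BomS1 and BomBc1), beside 1.60% of all genes. Of these calls only that of Drs was kept whichever single library of the pair of ages was left out, and without replicate 1 of day 50 Mtk was 2.05 with an adjusted p of 0.059, BomS1 0.72 with an adjusted p of 0.14 and BomBc1 0.72 with an adjusted p of 0.62. Without replicate 2 of day 50 Def was 0.40 with an adjusted p of 0.53. In females the matching step of Drs was −0.07 ± 0.36, limma adjusted p = 0.96, and BomBc3 was the member called higher (0.61 ± 0.11, limma adjusted p = 7.7e-04), beside 1.07% of all genes. Females had their large Drs step earlier, at day 20 against day 10 (2.20 ± 0.36, limma adjusted p = 4.5e-05), when 3 members (Drs, BomS1 and BomBc3) and 6.06% of all genes were called higher. Drs was the one member still called without replicate 3 of day 10, when BomS1 was 0.40 with an adjusted p of 0.16 and BomBc3 0.36 with an adjusted p of 0.0053, or without replicate 3 of day 20, when BomS1 was 0.58 with an adjusted p of 0.064 and BomBc3 0.48 with an adjusted p of 0.005, and BomS1 also lost its call without replicate 1 of day 20. Def rose in females at day 30 against day 20 (1.11 ± 0.21, limma adjusted p = 5.5e-04) and at day 40 against day 30 (0.87 ± 0.21, limma adjusted p = 0.0065), steps in which 1.83% and 0.481% of all genes were called higher. Its fall at day 50 against day 40 (−0.67 ± 0.21, limma adjusted p = 0.045) was beside 0.741% of all genes called lower and lost its call without any single library of these ages. BomBc3 rose in males at day 20 against day 10 (1.14 ± 0.14, limma adjusted p = 1.8e-06), beside 3.32% of all genes, and this call was kept without either day 20 library, while Mtk fell in the same step (−1.76 ± 0.54, limma adjusted p = 0.017), beside 7.88% of all genes called lower, a call that was −1.19 with an adjusted p of 0.24 without replicate 1 of day 20 and −1.51 with an adjusted p of 0.12 without replicate 3 of day 10. At day 30 against day 20 in males 5 members were called higher beside 7.11% of all genes, but without replicate 1 of day 20 the call of Mtk alone was kept.

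Males and females were then compared at each age, with differences given as males minus females. At day 0 Def was the only member called: it had 146, 92.5 and 95.1 normalized reads in males, against 207, 236 and 177 in females (−0.91 ± 0.21, limma adjusted p = 0.002), and 2.99% of all genes were called lower in males. At day 50 Drs was higher in males by 1.67 ± 0.40, limma adjusted p = 0.0023, Mtk by 2.10 ± 0.49, limma adjusted p = 0.0018 and Def by 0.91 ± 0.23, limma adjusted p = 0.003, while 4.38% of all genes were called higher in males. The libraries of the sexes did not overlap for these 3 genes at day 50. With 2 male libraries at this age the calls are not all firm: Drs was 1.30 with an adjusted p of 0.065 without replicate 1 of day 50, and Def was 0.47 with an adjusted p of 0.20 without replicate 2. None of the bomanins was called between the sexes at day 50. Their differences were −0.06 for BomS1 (95% interval −0.52 to 0.40), −0.06 for BomS2 (−0.56 to 0.44), 0.06 for BomS3 (−0.49 to 0.61), 0.35 for BomBc1 (−0.63 to 1.34) and −0.32 for BomBc3 (−0.58 to −0.06). The last interval lies below 0, and the adjusted p by limma was 0.054.

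The change of day 50 against day 0 itself was larger in males than in females for Drs by 2.18 ± 0.54, limma adjusted p = 0.0089, for Mtk by 2.92 ± 0.66, limma adjusted p = 0.0043 and for Def by 1.82 ± 0.31, limma adjusted p = 2.0e-04. These are the 3 members called in this test of the difference, in which 2.55% of all genes were called with a larger change in males. Without replicate 1 of male day 50 the value of Drs was 1.80 with an adjusted p of 0.077, and the calls of Mtk and Def were kept without any single library. The bomanins were not called, with differences of −0.22 for BomBc3 to 0.73 for BomBc1, and for BomBc1 the 95% interval was wide (−0.60 to 2.05). For the line over days 10 to 50, Mtk rose more in males (3.14 ± 0.62, limma adjusted p = 8.1e-04) and BomBc3 less (−0.73 ± 0.16, limma adjusted p = 0.0016), beside 2.44% and 5.42% of all genes. Def was not called in this difference (−0.52 ± 0.29, limma adjusted p = 0.24), and its sign was opposite to that for day 50 against day 0. Without replicate 2 of male day 50 the difference of Def was −0.88.

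Between these ages the direction of the difference varied with gene and age. BomBc3 was ahead in males at day 20, with 3573 and 3754 normalized reads in males, against 1873, 1729.8 and 2104 in females (0.95 ± 0.13, limma adjusted p = 1.2e-06), and at day 30 (0.88 ± 0.11, limma adjusted p = 5.1e-07). At day 40 its difference (0.49 ± 0.11, limma adjusted p = 0.0013) was just under the size needed for a call. Drs was behind in males at day 30, with 4206, 2164 and 2578 normalized reads in males, against 5476, 8672 and 5360.2 in females (−1.15 ± 0.36, limma adjusted p = 0.014), a call lost without replicate 2 of the females (−0.92 with an adjusted p of 0.079) or replicate 2 of the males (−0.94 with an adjusted p of 0.074). At day 40 it was lower in males by a call (−0.98 ± 0.36, limma adjusted p = 0.04) that was lost without any one of 5 of the 6 libraries of that age, with −0.54 with an adjusted p of 0.28 without replicate 3 of the females. Def was higher in males at day 10 (0.87 ± 0.23, limma adjusted p = 0.0056) and lower at day 40 (−0.59 ± 0.21, limma adjusted p = 0.027), and the call of day 10 was 0.81 with an adjusted p of 0.061 without replicate 1 of the males and that of day 40 was lost without any one of 4 libraries, with −0.54 with an adjusted p of 0.088 without replicate 2 of the males. Members called lower in males numbered 4 (day 20: Drs, Mtk, BomS1 and BomS2), 2 (day 30: Drs and BomS1) and 4 (day 40: Drs, Def, BomS1 and BomBc1), beside 11.7%, 8.18% and 6.33% of all genes, and those called higher numbered 1 (Def, day 10), 2 (Def and BomBc3, day 20) and 1 (BomBc3, day 30), beside 6.28%, 4.89% and 4.08%. At day 20, 3 members in place of 6 were called either way without replicate 1 of male day 20: Mtk (−2.43 with an adjusted p of 0.0043) and BomS1 (−0.59 with an adjusted p of 0.049) lower in males and BomBc3 (0.99 with an adjusted p of 6.8e-05) higher. At day 30, without replicate 2 of the females, BomBc3 was the only member still called. When values were scaled to total linear reads, BomS2 at day 20, BomS1 at day 30 and Drs and Def at day 40 were not called between the sexes. At day 40 BomS1 was lower in males (−0.77 ± 0.20, limma adjusted p = 0.0037), as was BomBc1 (−1.55 ± 0.43, limma adjusted p = 0.0066), whose call was lost without replicate 3 of the females (−1.22 with an adjusted p of 0.0502).

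The order of the genes by level changed with age. Genes were compared per 1000 bases of exon, with the exons of all annotated transcripts of a gene merged. The transcripts in use were not measured, so the places of BomS3 (2 transcripts) and BomBc3 (3 transcripts) are approximate. On this scale BomS2 led at day 0, with a mean of 25366 normalized reads in males and 28559 in females. BomS3, BomS1, Drs and BomBc1 followed in both sexes, and none of them overlapped its neighbour. At day 50 males had Drs at 47156, BomS2 at 40822 and Mtk at 40460.0 per 1000 bases, and each of these overlapped the next in its libraries. In females BomS2 was first at day 50 with 42466, then BomS1 with 26743 and BomS3 with 25626, which overlapped each other, and Drs followed with 14689. Def, BomBc1 and BomBc3 were the lowest genes per 1000 bases at day 50 in both sexes. Summed over the 8 genes, without regard to length, the peptide reads made up 0.159% of linear reads at day 50 in males, against 0.0480% at day 0, and 0.104% at day 50 in females, against 0.0526% at day 0. BomS3 was 24.8% of these summed reads at day 50 in males, against 53.7% at day 0, and Drs 22.1% against 2.45%.

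In some groups 1 library stood apart for most members. Replicate 3 of female day 40 was the highest of its group for 7 of the 8 genes, as was replicate 1 of male day 50, and replicate 1 of male day 20 was the lowest for 7. Def was the exception in each of these 3 libraries. Male days 20 and 50 hold 2 libraries each, so there the other library is the mirror of the one named. Replicate 3 of female day 0 was also the lowest for 7, but its exception was BomBc1, and Def was among the lowest. Other groups were split: replicate 1 of male day 40 was the highest for 4 members and the lowest for 4, and replicate 1 of male day 30 was the highest for 3 and the lowest for 4. Over the 33 libraries, the deviations from the group means had a Pearson correlation of 0.96 for BomS2 and BomS3, 0.92 for BomS1 and BomS2 and 0.89 for BomS1 and BomS3, while Drs had 0.67 with BomS1 and 0.68 with BomBc1. Those of Def with the other 7 were −0.55 to −0.05. These values are descriptions: the points share the library, its depth and its base composition, and the short bomanins also share a low content of G and C.

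**Figure D3:**
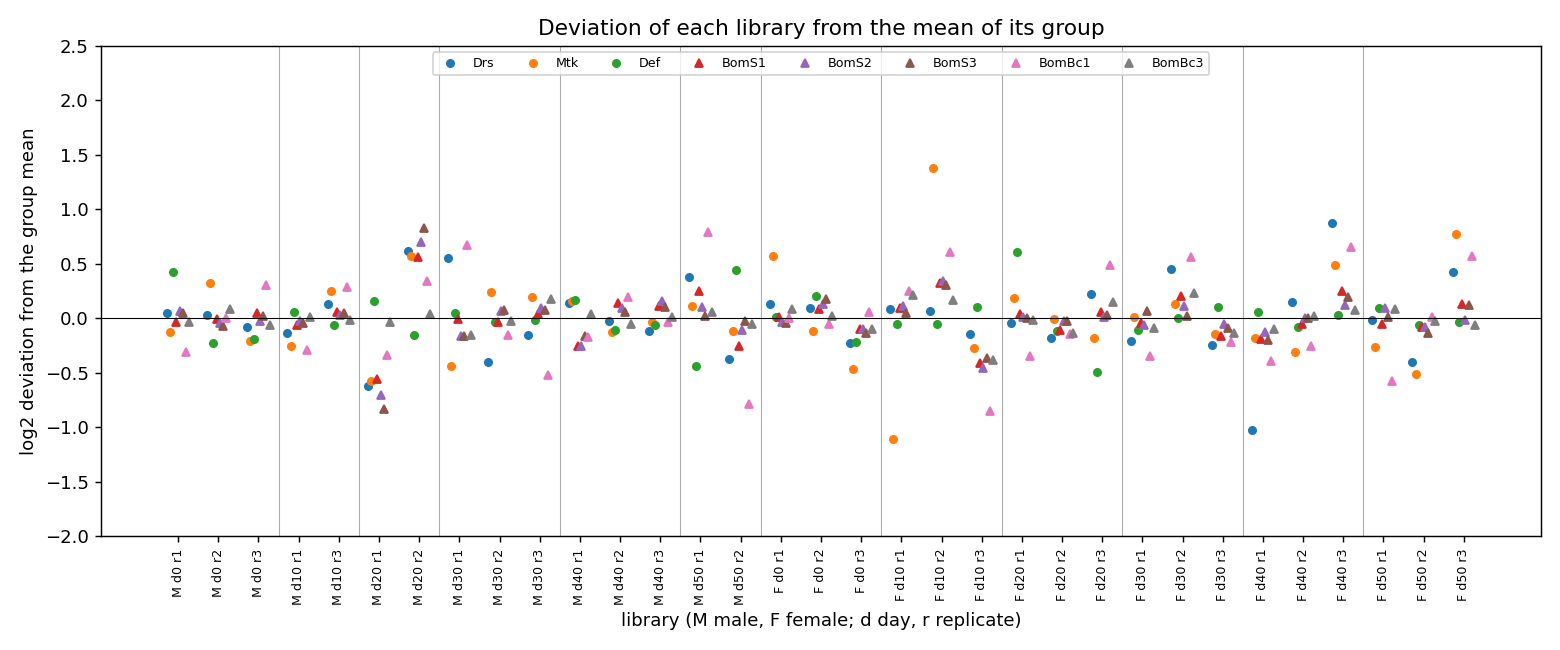
Deviation of each library from the mean of its group on the log2 scale, with 1 coloured point per gene and the libraries along the horizontal axis, males left of females. In male day 20 the members of replicate 1 lie below those of replicate 2 except Def, and in male day 50 those of replicate 1 lie above those of replicate 2 except Def.

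The other bomanin genes were looked at as well, 6 in the cluster of 2R and BomT3 next to BomBc3. The median log2 change of these 7 at day 50 was 1.48 in males and 1.38 in females. In each sex 6 of them were higher, beside 19.9% of all genes in males and 21.0% in females. They were BomS5 (2.49 ± 0.24 in males and 2.12 ± 0.21 in females), BomT1 (2.30 and 1.80), BomS6 (1.57 and 1.65), BomT2 (1.48 and 1.26), BomT3 (1.05 and 1.38) and BomS4 (0.65 and 0.74). BomBc2 was under the size needed for a call, at 0.14 ± 0.09 in males and 0.43 ± 0.08 in females. BomBc2 and BomS4 lie on opposite strands and share 88 bases of exon, and since the strand setting of the counting is not given, reads of the shared bases cannot be assigned to either. Along the cluster, the genes with the smallest changes (BomS4, BomBc2, BomS2 and BomS3) were neighbours, with BomT1, BomBc1 and BomS1 on one side of them and BomT2, BomS5 and BomS6 on the other.

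**Figure D4:**
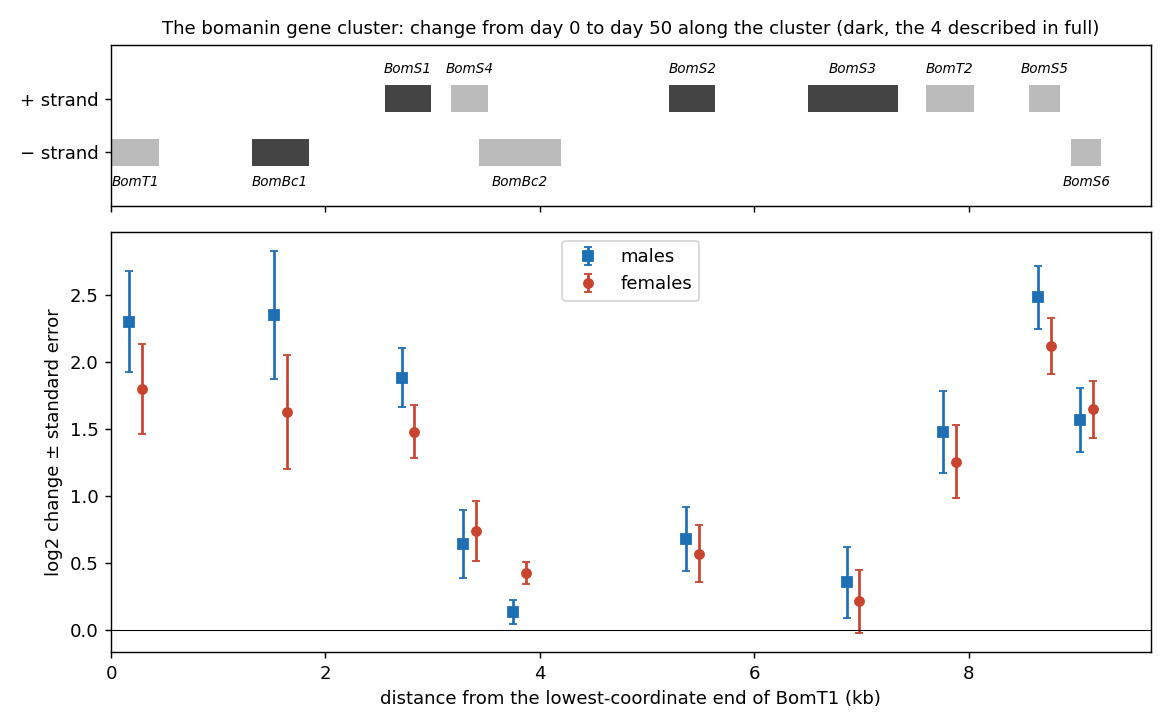
Top, the genes of the bomanin cluster by strand against the distance in kb from the lowest-coordinate end of BomT1, drawn to scale, with the 4 members of the cluster in dark. Bottom, the log2 change of day 50 against day 0 with its standard error for each gene in males and females, where BomBc1 reached 2.35 in males and 1.63 in females and BomS3 0.36 and 0.22.

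Other peptide genes listed beside those driven by Toll were also mostly higher. The list holds relatives of Drs (Drsl genes), whose dependence on Toll was not tested. Of 9 listed genes in the table, 5 passed the filter. At day 50, 4 of these were higher in both sexes, beside 19.9% of all genes in males and 21.0% in females. They were BaraA1, which encodes the baramicin precursor (4.84 ± 0.42 in males and 3.54 ± 0.38 in females), Drsl5 (2.43 and 2.12), Dso1 (2.03 and 1.74) and Dso2 (1.06 and 0.97). The last pair encodes daisho peptides. Drsl4 was lower at day 50 in males (−0.51 ± 0.17) and under the size needed for a call in females (−0.44 ± 0.15), but in males it was higher at day 10 (2.65 ± 0.17), with group means of 499 (day 0), 3146 (day 10), 4049 (day 20) and 351 (day 50) normalized reads. BaraA1 shares 272 bases of exon with a gene on the other strand. Its group means were low, at 1.25 in males and 2.83 in females at day 0 and 55.1 and 42.6 at day 50. The size of its change therefore depends on the 1 added to each value before the log2.

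Upstream of the receptor, 7 of 15 genes were higher at day 50 and 1 lower in males, and 9 were higher and 2 lower in females, while 22.5% of all genes were lower in males and 24.9% in females, with the shares higher being 19.9% and 21.0%. Of the recognition protein families, GNBP-like3 was at 3.85 ± 0.22 in males and 2.85 ± 0.20 in females, PGRP-SD at 3.80 and 2.65, and PGRP-SA, which binds peptidoglycan of Gram-positive bacteria, at 2.10 and 1.33. Among proteases of the cascade, the genes called higher were Hayan at 2.19 and 1.63 and spirit at 1.89 and 1.74. The ligand gene spz rose by 1.01 and 0.71 and GNBP1 by 0.67 and 0.77, and the protease gene grass fell by 1.01 in males and 1.07 in females. From the receptor inward, 2 of 12 genes were higher and 2 lower in each sex, shares below those of all genes just given. They were cactin (0.69 in males and 0.93 in females) and the kinase gene pll (0.62 and 0.59), which rose, and the adaptor gene Myd88 (−0.82 and −0.55) and Pli (−0.94 and −0.83), which fell. The receptor gene Tl (−0.35 and −0.31), Dif (−0.18 and −0.14), dl (0.32 and 0.10) and cact (−0.29 and −0.33) were under the size needed for a call, with adjusted p below 0.05.

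Peptide genes that depend on Imd had larger median changes than the 8 members. Of 11 genes, 9 were higher at day 50 in each sex, beside 19.9% of all genes in males and 21.0% in females. Their median log2 change over the 11 genes was 7.11 in males and 4.35 in females. The largest was DptA, a diptericin, at 9.70 ± 0.89 in males and 6.62 ± 0.79 in females. Dro was at 9.05 in males and 4.56 in females, DptB at 8.66 and 5.83 and AttC at 7.77 and 5.06. CecB and CecC, the cecropin genes not called at day 50 in either sex, were at 1.63 ± 0.76 and 1.68 ± 0.80 in males and 0.19 ± 0.68 and −0.23 ± 0.71 in females. Near-identical pairs such as AttA and AttB may share reads. Mtk, which also answers to Imd, was at 7.04 in males and 4.13 in females.

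Heads hold several tissues, and in such bulk samples fewer cells of a type cannot be told apart from less RNA per cell. Of 8 fat body genes, the tissue where these peptides are mainly made, 4 were higher and 3 lower at day 50 against day 0 in males, and 6 were higher and 1 lower in females. Their summed level was 674706 to 798849 normalized reads at day 50 in males, against 228753 to 262235 at day 0, and 1652470 to 1965160 at day 50 in females, against 290389 to 362778 at day 0, and the lipoprotein gene apolpp gave most of it at day 50. The genes called higher in males were apolpp, to, Apoltp and AkhR, and those called lower were Fbp1 (−10.66 ± 0.60), the larval serum protein gene Lsp2 (−2.24 ± 0.50) and the lipid droplet gene Lsd-1 (−0.70 ± 0.11). In females the 4 genes higher in males were higher too, with Lsp2 (2.73 ± 0.45) and the fatty acid synthase gene FASN1 (1.71 ± 0.11), and Fbp1 was lower (−10.91 ± 0.54). At day 50, 7 of the 8 fat body genes were lower in males than in females, as were 6.94% of all genes, while Drs, Mtk and Def were higher in males. Of 8 hemocyte genes, 4 were higher and 2 lower in males and 3 higher and 2 lower in females, with a sum of 34281 to 39153 at day 50 in males, against 30230 to 31591 at day 0, and 36686 to 44110 at day 50 in females, against 37522 to 38844 at day 0. No marker of the fat body and hemocyte lists had a group mean of 0. The lowest of them was Fbp1, with group means of 7.41 to 30.7 from day 10 on, against 18203 in males and 20712 in females at day 0. In the muscle list, TpnC47D had a group mean of 4.62 in males of day 10. In both sexes 4 of 6 neuron genes and 6 of 6 muscle genes were lower at day 50. For these lists at day 50 against day 0 the shares of all genes are again 19.9% higher and 22.5% lower in males. In females they are 21.0% higher and 24.9% lower. By the line over days 10 to 50, 0 fat body genes were higher and 6 lower in males, and 1 and 3 in females. For hemocyte genes these were 1 and 2 in males and 0 and 4 in females. Of all 12685 genes, 1296 were higher and 1237 lower in males, and 1451 and 1326 in females. The mean fat body sum was 1175920 (day 10) and 736778 (day 50) in males, and 1166530 and 1773840 in females. The part of these shifts in the changes of the peptide genes was not tested.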

How the data were processed

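Heads of CantonS flies were profiled by RNA-seq of ribosomal RNA-depleted total RNA. Per the labels and the methods, the authors aligned reads to dm6 with STAR, counted them per gene with featureCounts and divided circRNA and linear reads by DESeq2 size factors, and these deposited signal values (normalized reads) were used here. Tool versions and strand setting are not given in the sources used here. The authors left out 2 male samples as outliers. The 12685 linear genes averaging 10 normalized reads or more were tested on log2(value + 1) with limma 3.58.1 (trend and robust options), fitting the 12 groups together. P-values were adjusted over these genes after Benjamini and Hochberg, and a call needed both an adjusted p below 0.05 and a log2 change beyond 0.5. Fold changes are on this scale.

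Whole reads were recovered from the deposited values of 32 libraries (100% of values whole within 0.01 reads). On these reads edgeR 4.0.16 (quasi-likelihood) called 5526 genes at day 50 against day 0 in males and 5832 in females, DESeq2 1.42.0 called 5496 and 5808, and limma on the signal called 5378 and 5832. Male day 20 replicate 1 was set aside by name and not used in these count tests, although 100% of its values were also whole within 0.01 reads.

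Replicates are separate samples labelled as biological replicates of pooled heads. The 8 genes and all lists were chosen with earlier results of these data known. Genes named beside the members were those of each list called in the same direction at day 50 in both sexes, at most 8 per list, and the 5 genes most like Drs and the 5 most like the bomanins over libraries, and genes not called that are named for contrast were chosen after their values were seen. Of the symbols listed, BaraA2, IM18 and spheroide were not matched to a gene of the table. Steps between neighbouring ages without single libraries, and the fits without male day 20 replicate 1 and male day 40 replicate 1 together or with the mean of female day 50 replicates 1 and 2, were added after seeing the data. None of the 8 genes had a circRNA row. Sequences and gene models came from the BDGP6.54 annotation and genome. The fit was tested on simulated data. R 4.3.3, Python 3.11.15 and matplotlib 3.10.9 were used.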

Additional observations from a re-analysis of the deposited data

Results flagged for a closer look

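The change of day 50 against day 0 differed between males and females for Drs (2.18 on the log2 scale, males minus females), Mtk (2.92) and Def (1.82), each by a contrast tested in limma. Over days 10 to 50, the fitted change differed for Mtk (3.14) and BomBc3 (−0.73). Drs and Mtk were highest in the male libraries of day 50, and BomBc3 had 3573 and 3754 normalized reads at day 20 and 3674 and 3401 at day 50 in males, and 1873, 1729.8 and 2104 at day 20 and 4657, 4327 and 4228 at day 50 in females. The male groups of days 10, 20 and 50 hold 2 libraries each.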

How the results depend on the processing

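Of 212 recomputed numbers of called members under another pseudocount, filter, scaling, tool, model or set of libraries, 210 stayed within 1.5 times. The others were males against females at day 20, where 6 members were called: edgeR, which did not use male day 20 replicate 1, called 2, and leaving out male day 20 replicate 1 and male day 40 replicate 1 together gave 3. When single libraries were left out, males against females gave 1 at day 0, 0 to 1 at day 10, 3 to 7 at day 20, 1 to 3 at day 30, 2 to 3 at day 40 (4 with all libraries and with the pair just named left out) and 2 to 3 at day 50, the difference of the fitted lines 2 to 5 and the difference of the changes 2 to 3. The 1 at day 30, without female replicate 2, was higher in males, whereas 2 of the 3 with all libraries were lower. The day 20 comparison of BomS2 in males, −0.60 by limma, turned to 0.16 by edgeR, 0.13 by DESeq2 and 0.11 without replicate 1 or without it and male day 40 replicate 1 (−1.30 to 0.11 over single libraries), and BomS1, at 0.04, turned to −0.52 without replicate 2 (−0.52 to 0.60). For single genes, 1648 of 1696 other values and 1180 of 1240 without a library kept direction and call, and the cause of the others was not tested except where fewer samples were used. Scaling to total linear reads raised the median of all genes at day 50 to 0.22 in males and 0.08 in females, with 3902 genes higher and 1866 lower in males (2519 and 2859 as deposited) and 3237 and 2561 in females (2668 and 3164). It shifted the members by 0.26 in males and 0.12 in females and changed 11 of their calls, none of them at day 50 against day 0. Among these, the fitted line of Drs then differed between the sexes (1.48 with an adjusted p of 0.045, against 1.41). Of males against females, BomS2 at day 20, BomS1 at day 30 and Drs and Def at day 40 lost their calls. BomBc3 at day 40 gained one (0.62 with an adjusted p of 7.9e-05 by limma). For that comparison at day 30, 2296 of all genes were then higher in males and 546 lower, against 517 and 1038 as deposited. Replicate numbers do not pair the samples: of 42 pairs with the same number, 2 had a correlation of deviations over 0.1 (range −0.32 to 0.15), and the fit with the replicate block gave 7 members at day 50 against day 0 in each sex and ended the calls of BomBc1 in the male line (1.14, adjusted p = 0.061) and Drs in males against females at day 40 (adjusted p = 0.051). Where 1 of 2 male libraries was left out, the other was assumed to vary like the libraries of the other groups.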

Other observations

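Genes outside the 8 whose deviations from their group means were most like those of Drs over the 33 libraries were PGRP-SC2, which encodes an amidase that cuts peptidoglycan (Pearson r = 0.71), lncRNA:CR46235 (0.69), ReepB (0.67), CG43175 (0.66) and l(1)G0469 (0.66). For the mean deviation of the 5 bomanins they were CG16772 (0.84), CG13795 (0.83), CG32276 (0.83), the tailed bomanin gene BomT1 (0.82) and asRNA:CR43460 (0.82). These are descriptions over libraries that share depth and base composition, and the genes were the highest of all those tested.

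Drsl5, a relative of Drs, did not follow its time course: it was higher at day 50 than at day 0 by 2.43 ± 0.22 in males and 2.12 ± 0.20 in females, but over days 10 to 50 its fitted change was −1.54 ± 0.21 in males and −0.85 ± 0.18 in females, where that of Drs was 3.75 and 2.34. In the comparison of males with females at day 50, 6 of 11 peptide genes that depend on Imd were higher in males (median log2 difference 1.84), beside 4.38% of all genes, as were Drs, Mtk and Def. The median difference was −0.35 over the 7 other bomanins and 0.12 over the 5 tested genes of the list with BaraA1, the daisho genes and relatives of Drs.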
